A study of Mus musculus with 6 samples.

Results

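The genes described here encode 10 receptor chains through which growth factors act on early blood cells: Csf1r, Csf2ra, Csf2rb, Csf2rb2, Csf3r, Il3ra, Il6ra, Il6st, Kit and Flt3. They were taken by symbol from the array annotation as receptors for the cytokines of the culture (IL-3, IL-6 and SCF, the ligand of Kit), for the colony-stimulating factors and for FLT3 ligand. All 10 were measured, each by 1 probeset, out of 19938 genes, and no filter on low values was applied. The study put a lentivirus carrying HLX, a homeobox transcription factor, into bone marrow cells and asked which genes then differ from cells given the empty vector. The HLX group held 3 samples transduced with the HLX vector and the control group 3 samples transduced with the same IRES-GFP backbone without HLX, numbered 1 to 3 in each. All 6 samples were wild-type Lin-Kit+Sca-1+ bone marrow cells from FVB/nJ mice at a young adult age, the fraction that holds stem cells and multipotent progenitors, kept for 2 days with serum, mouse IL-3, mouse IL-6 and mouse SCF and 8 µg/ml polybrene. GFP-positive cells were then sorted, and RNA of 5000 to 10000 cells was amplified and hybridised. The labels do not say whether the replicates came from separate mice or cultures, so the p-values reflect how far these samples differ among themselves, and that may be technical.

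The receptors belong to a pair of families. Kit, Flt3 and Csf1r are receptor tyrosine kinases, which dimerise on binding SCF, FLT3 ligand or M-CSF and phosphorylate themselves. The others are cytokine receptors without a kinase of their own, which signal through bound Janus kinases (JAKs) to STAT transcription factors, RAS and PI3K. Il3ra and Csf2ra are the ligand-specific alpha chains for IL-3 and GM-CSF, and Csf2rb is the beta chain they share. Csf2rb2 is a second beta chain, found in the mouse, that serves IL-3 alone. Il6ra binds IL-6 and passes it to Il6st, the gp130 signalling chain, while Csf3r is the receptor for G-CSF. In marrow, Kit marks stem and progenitor cells, Flt3 marks multipotent progenitors with lymphoid potential, and Csf1r and Csf3r mark the monocyte and granulocyte branches.

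Promoter windows are shown for Flt3 and Csf2rb2, whose levels did not overlap between vectors, and for Kit, the receptor used to sort the cells. Csf1r did not overlap either, but no window was available for it or for Csf2rb. The windows shown come from RefSeq and run 5′ to 3′ from 250 bases before the gene's start to 50 after it. Capitals mark matches to any of the 5 short motifs named in the next paragraph. The windows lie in GRCm38.p6 at chr5:147400440-147400739 on the minus strand for Flt3, at chr15:78305672-78305971 on the minus strand for Csf2rb2 and at chr5:75574737-75575036 on the plus strand for Kit, the first of the Kit windows in the table.
Flt3: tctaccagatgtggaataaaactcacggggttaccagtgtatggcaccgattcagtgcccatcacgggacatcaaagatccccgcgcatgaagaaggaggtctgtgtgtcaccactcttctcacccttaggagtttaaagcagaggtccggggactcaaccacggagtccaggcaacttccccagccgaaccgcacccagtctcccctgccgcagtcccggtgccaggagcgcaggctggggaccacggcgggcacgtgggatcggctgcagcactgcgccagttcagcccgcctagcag
Csf2rb2: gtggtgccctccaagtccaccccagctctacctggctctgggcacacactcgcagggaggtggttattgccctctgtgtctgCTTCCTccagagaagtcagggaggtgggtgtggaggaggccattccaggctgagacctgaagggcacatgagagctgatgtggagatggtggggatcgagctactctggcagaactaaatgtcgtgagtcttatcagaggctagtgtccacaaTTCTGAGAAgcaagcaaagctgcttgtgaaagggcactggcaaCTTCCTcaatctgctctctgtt
Kit: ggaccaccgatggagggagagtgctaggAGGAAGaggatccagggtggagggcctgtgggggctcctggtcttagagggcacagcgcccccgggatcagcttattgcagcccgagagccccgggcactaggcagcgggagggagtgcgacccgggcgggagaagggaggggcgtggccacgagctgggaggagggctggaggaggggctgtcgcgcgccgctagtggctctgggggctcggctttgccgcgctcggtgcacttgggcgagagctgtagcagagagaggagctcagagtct

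The motifs were searched on both strands in the 9 windows of the 8 receptor genes found in the table. They were AGGAAG, a core bound by ETS factors, TGTGGT for RUNX factors, AGATAA for GATA factors, TAAT for homeodomain proteins and TTCNNNGAA for STAT factors. AGGAAG stood in windows of 6 of the 8 genes, against 35.4% of 32851 windows in the whole table. Csf2rb2 held it at 2 places, Kit at 1 and Flt3 at 0. TTCNNNGAA was found for Csf2rb2 alone of the 8 genes and in 8.30% of all windows. TAAT was found for Csf3r and Il6st, against 58.0% of all windows, AGATAA for Il6ra, against 11.2%, and TGTGGT for none, against 16.8%. The member windows were GC-rich, at 55.0% to 74.3% G and C.

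The arrays resembled each other, with median log2 levels of 6.3182 to 6.4043 and correlations across genes of 0.980 to 0.987. Hlx, the gene carried by the vector, was at 10.75, 9.74 and 10.28 in HLX replicates 1 to 3 and at 6.99, 7.29 and 7.62 in control replicates 1 to 3. It was 7.75-fold higher (log2 difference 2.95, 95% interval 2.33 to 3.58, adjusted p from limma 0.0782, n = 3 per group). Whether its probes bind the part of the transcript that the vector carries is not stated, so this checks the labels only in so far as they do. With limma, 0 of the 19938 genes had an adjusted p below 0.05 (0.00% called) and 958 an unadjusted p below it (4.80%), of which 487 were higher and 471 lower, or 612 higher and 376 lower after median centring of each array. With a trended and robust prior 1 gene was called, Hlx. Of the cell markers, Cd34 lay between 10.72 and 11.36 and Meis1 between 9.73 and 10.03 on all arrays. The neutrophil genes Ly6g and Ngp, at 4.69 to 4.96 and 5.19 to 5.34, lay below the median of every array.

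None of the 10 receptors passed the adjusted threshold, where the smallest adjusted p was 0.901. At an unadjusted p under 0.05 stood 3 of the 10, Csf1r and Csf2rb2 as higher and Flt3 as lower, while 2.44% of all genes stood there as higher and 2.36% as lower. The same 3 were those whose HLX and control arrays did not overlap, which held for 9.19% of all genes (4.34% higher and 4.85% lower). With only 10 genes, chosen with earlier results of these data known, these shares are a description. The members' median log2 difference was 0.06 against -0.01 for all genes. All differences below are log2 levels with HLX minus log2 levels with the control vector. For single genes the SE is the moderated one from limma.

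**Figure D1:**
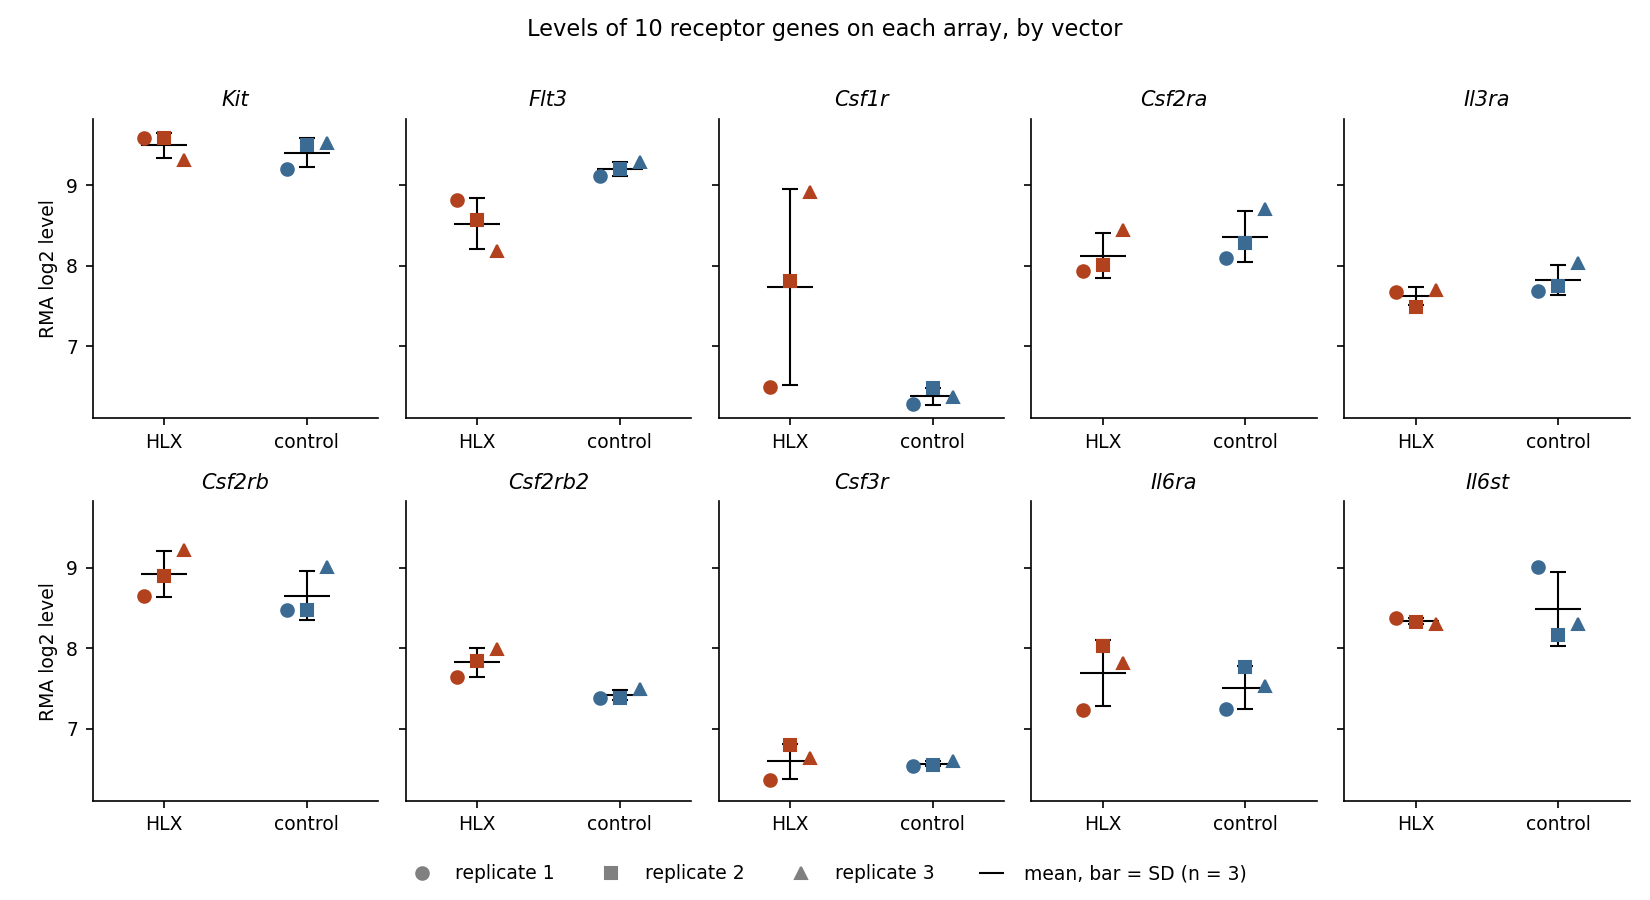
RMA log2 level (vertical axis, the same for all panels) of each receptor gene on the 3 HLX arrays (left) and 3 control arrays (right); marker shapes give the replicate number, horizontal lines the mean and bars the SD. Flt3 lies lower on all 3 HLX arrays, Csf2rb2 higher on all 3, and Csf1r reaches 7.80 and 8.92 on HLX replicates 2 and 3 only.

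Among the tyrosine kinase receptors, Kit was at 9.59, 9.58 and 9.31 in HLX replicates 1 to 3, against 9.20, 9.50 and 9.53 in control replicates 1 to 3. The groups overlapped between 9.31 and 9.53, with HLX replicates 1 and 2 above and control replicate 1 below that range, and Kit was part of the gate by which the cells were chosen before culture. The difference was 0.09 ± 0.13 (SE, n = 3 per group), with a 95% interval of -0.22 to 0.40. Without control replicate 1, the lowest array, it was -0.02.

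Flt3 was at 8.81, 8.57 and 8.19 in HLX replicates 1 to 3, against 9.12, 9.21 and 9.29 in control replicates 1 to 3. Every HLX array lay below every control array, by at least 0.305, and the control arrays were tightly grouped while the HLX arrays spread over 0.63. The mean was 8.52 ± 0.32 with HLX and 9.20 ± 0.08 with control (SD, n = 3), a 1.60-fold lower level (difference -0.68 ± 0.16 SE, 95% interval -1.06 to -0.30). The unadjusted p from limma was 0.00369, the 76th smallest of 19938, and the adjusted p was 0.901. Leaving out any 1 array gave a difference between -0.83 and -0.51. In whole-population RNA, fewer cells with the transcript and less transcript per cell cannot be told apart, here or for the genes that follow.

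Some stem and multipotent cell markers also had lower values with HLX. Leaving out Kit and Flt3, 10 of the 11 measured markers had a difference below 0, against 10467 of all 19938 genes. Of the 11, 3 were lower at an unadjusted p from limma under 0.05 (Mecom, Mllt3 and Hoxb5), against 2.36% of all genes. The same 3 were lower without overlap, against 4.85% of all genes. The other 8 overlapped between vectors, and 0 of the 11 passed the adjusted threshold of limma. The mean level of the 11 ran from 7.85 to 8.01 on HLX arrays and from 8.06 to 8.32 on control arrays. It was 8.32, 8.07 and 8.06 in control replicates 1 to 3, and 6 of the 11 markers were highest in control replicate 1. The part of these markers in the Flt3 difference was not tested. Of the individual markers, Mecom was at 6.93, 6.16 and 6.49 in HLX replicates 1 to 3, against 7.54, 7.11 and 7.37 in control replicates 1 to 3. Cd34 and Meis1 were among the 8 that overlapped.

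Csf1r was at 6.49, 7.80 and 8.92 in HLX replicates 1 to 3, against 6.28, 6.48 and 6.37 in control replicates 1 to 3. HLX replicate 3 was far above all control arrays, HLX replicate 2 was clearly above them, and HLX replicate 1 exceeded the highest control array by only 0.0086, so the groups barely failed to overlap. The mean was 7.74 ± 1.22 with HLX and 6.37 ± 0.10 with control (SD, n = 3), 2.57-fold higher, the largest difference of the 10 (1.36 ± 0.53 SE, 95% interval 0.12 to 2.60). The 3 HLX arrays spanned 5.40-fold, and only 27 of 19938 genes, Csf1r included, had an SD between HLX arrays as large as this. Limma gave an unadjusted p of 0.0351 and an adjusted p of 0.9999. Without HLX replicate 3 the difference was 0.77 (unadjusted p 0.0779), and without HLX replicate 1 it was 1.99 (unadjusted p 0.000432). The unadjusted p lay above 0.05 whichever of the other 5 arrays was left out. Hlx itself was highest in HLX replicate 1, and whether its level bears on that of Csf1r was not tested.

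Markers of mature myeloid cells moved with Csf1r in part. Itgax, the integrin chain CD11c of dendritic cells and macrophages, was at 6.14, 7.19 and 8.43 in HLX replicates 1 to 3, against 5.66, 6.1997 and 6.33 in control replicates 1 to 3. It stood in the same order as Csf1r over the HLX arrays, and HLX replicate 1 lay within the control range. Cd14, a coreceptor for bacterial lipopolysaccharide on monocytes, was at 7.31, 7.45 and 8.55 in HLX replicates 1 to 3, against 6.50, 7.60 and 7.38 in control replicates 1 to 3, and was thus apart only in HLX replicate 3. Adgre1, a surface marker of macrophages, was at 4.75, 4.86 and 5.37 in HLX replicates 1 to 3 and at 4.63, 4.54 and 4.85 in control replicates 1 to 3, again highest in HLX replicate 3. All these Adgre1 levels lay below the median of every array.

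Lyz2 and Itgam were higher on every HLX array, as was Csf1r by a narrow margin. Lyz2, the lysozyme of granulocytes and macrophages, was at 7.63, 8.00 and 8.04 in HLX replicates 1 to 3. In control replicates 1 to 3 it was at 7.12, 7.14 and 7.30. Lyz2 stood in the same order as Csf1r over the HLX arrays. Itgam, the integrin chain CD11b, was at 7.24, 6.91 and 6.72 in HLX replicates 1 to 3, against 6.49, 5.72 and 5.99 in control replicates 1 to 3, with HLX replicate 1 the highest. Leaving out Csf1r, the neutrophil, monocyte and macrophage list averaged 5.61 to 5.76 on HLX arrays and 5.39 to 5.46 on control arrays. Of its 14 genes 10 were below the median of every array. A difference above 0 was found for 10 of the 14, against 9471 of all 19938 genes. At an unadjusted p under 0.05 from limma 3 were higher (Lyz2, Itgam and Cxcr2), against 2.44% of all genes. These 3 were higher on every HLX array, against 4.34% of all genes. The neutrophil genes Ly6g, Ltf and Camp were lower on every HLX array, against 4.85% of all genes, with differences of -0.15, -0.09 and -0.19. The 11 dendritic cell markers averaged 6.84 to 7.04 on HLX arrays and 6.70 to 6.91 on control arrays, with 6 differences above 0 and 5 below. Itgax had the largest of these, 1.19, while Siglech, a lectin of plasmacytoid dendritic cells, was lower on every HLX array (-0.32, unadjusted p 0.0163). The part of these cells in the Csf1r difference was not tested.

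**Figure D2:**
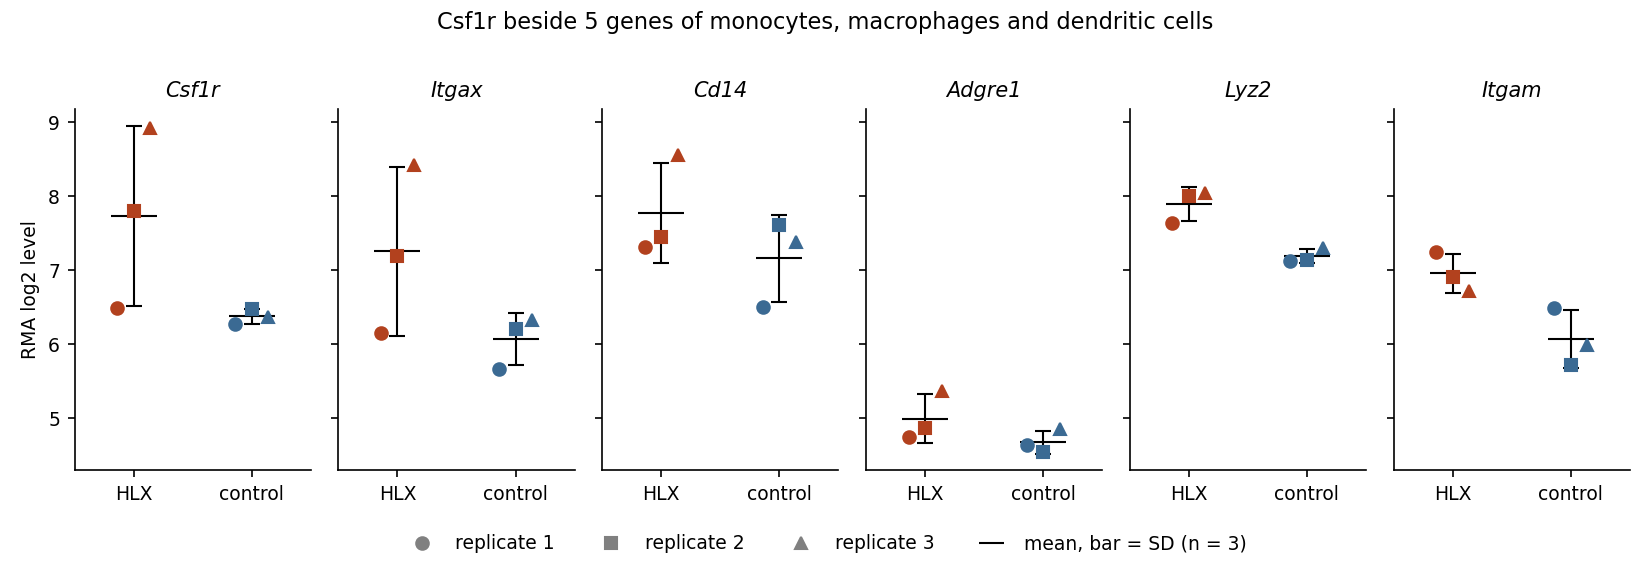
RMA log2 level of Csf1r and 5 genes of monocytes, macrophages and dendritic cells on the 3 HLX arrays (left in each panel) and 3 control arrays (right); shapes give the replicate number, lines the mean and bars the SD. Csf1r, Itgax, Cd14, Adgre1 and Lyz2 are highest in HLX replicate 3, with Csf1r at 8.92 and Itgax at 8.43, and Itgam in HLX replicate 1. Lyz2 and Itgam are higher on every HLX array, as is Csf1r by a narrow margin.

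Of the beta chains, Csf2rb2, the chain for IL-3 alone, was at 7.64, 7.84 and 8.00 in HLX replicates 1 to 3, against 7.38, 7.39 and 7.50 in control replicates 1 to 3. All HLX arrays lay above all control arrays, with a gap of 0.14. The level was 1.32-fold higher (difference 0.40 ± 0.12 SE, 95% interval 0.13 to 0.67, unadjusted p 0.0101 and adjusted p 0.932 from limma). It was between 0.31 and 0.49 whichever array was left out.

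Csf2rb, the beta chain common to IL-3, GM-CSF and IL-5, was at 8.65, 8.89 and 9.22 in HLX replicates 1 to 3, against 8.48, 8.48 and 9.01 in control replicates 1 to 3. The groups overlapped through control replicate 3, and the difference was 0.27 ± 0.20 (95% interval -0.20 to 0.73). Without that array it was 0.45, and without HLX replicate 3 it was 0.12. Csf2rb and Csf2rb2 lie on chromosome 15, are close relatives, and were measured by separate probesets. How far the probes of each bind the transcript of the other is not stated in the labels or files.

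The alpha chains had differences below 0. Il3ra was at 7.67, 7.49 and 7.70 in HLX replicates 1 to 3, against 7.68, 7.75 and 8.03 in control replicates 1 to 3, a difference of -0.20 ± 0.13 (95% interval -0.49 to 0.09), which was -0.0954 without control replicate 3. The 2 groups met at HLX replicate 3 and control replicate 1, which differed by less than the spread within either group. Csf2ra was at 7.93, 8.00 and 8.44 in HLX replicates 1 to 3, against 8.10, 8.28 and 8.71 in control replicates 1 to 3, a difference of -0.24 ± 0.20 (95% interval -0.70 to 0.23). It overlapped through HLX replicate 3, and without control replicate 3 the difference was -0.06.

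Subunits that work together were compared within each array, as log2 ratios set to a control mean of 0. For ratios the SE was taken from the variances of the 3 arrays per group, without moderation, unlike the SE of single genes. The ratio of Csf2ra to Csf2rb was -0.43, -0.60 and -0.49 in HLX replicates 1 to 3, against -0.08, 0.10 and -0.01 in control replicates 1 to 3. The GM-CSF alpha chain was thus lower relative to its beta chain on every HLX array (mean difference -0.50 ± 0.07 SE), and the ratio was steadier than either gene. The ratio of Il3ra to Csf2rb2 was -0.37, -0.75 and -0.69 in HLX replicates 1 to 3, against -0.10, -0.04 and 0.14 in control replicates 1 to 3 (mean difference -0.60 ± 0.14 SE). It too was lower on every HLX array. The ratio of Csf2rb2 to Csf2rb overlapped between groups, with a mean difference of 0.13 ± 0.16 SE.

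Flt3 relative to Kit was -0.58, -0.81 and -0.92 in HLX replicates 1 to 3, against 0.12, -0.08 and -0.04 in control replicates 1 to 3 (mean difference -0.77 ± 0.12 SE). For the 3 ratios without overlap a 2-sided exact permutation test returned p = 0.1, as low as 3 against 3 arrays can go, and 0.167 adjusted over the 5 ratios compared. Such ratios only describe how a pair of genes differed between vectors in these samples, not which of them did. Flt3 and Csf2rb2 did not overlap between vectors on their own, so the ratios that hold them are not separate results. No share without overlap was computed for other gene pairs.

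**Figure D3:**
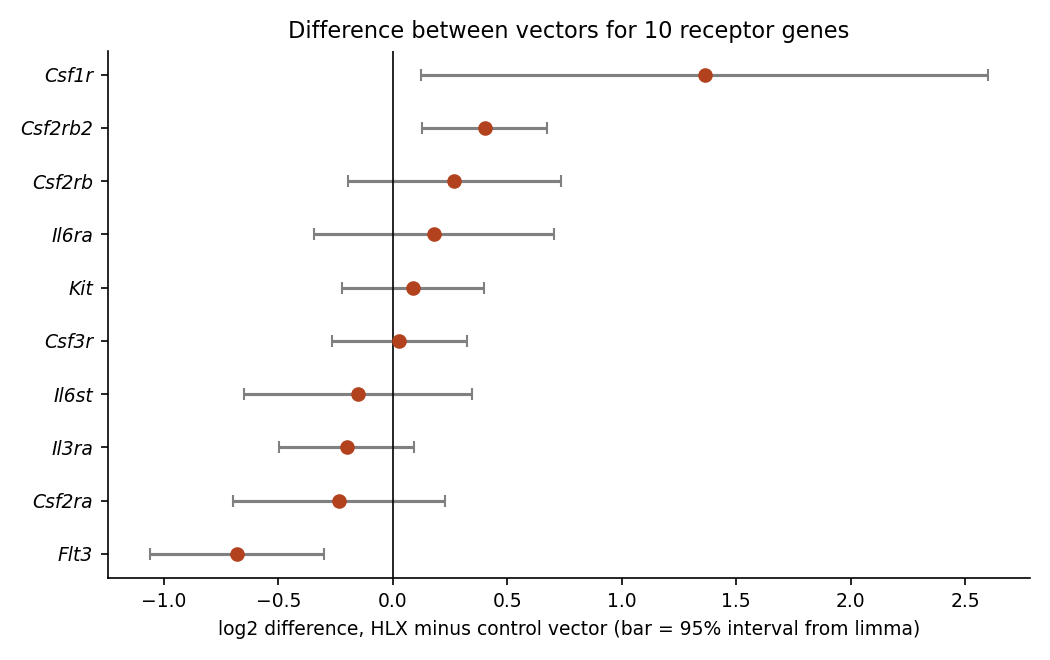
Log2 difference between HLX and control vector for each receptor gene (points) with its 95% interval from limma (bars), ordered by size. The intervals of Flt3, Csf2rb2 and Csf1r leave out 0, and that of Csf1r, from 0.12 to 2.60, is the widest.

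For Il6ra and Csf3r the spread within each group was larger than the difference. Il6ra, which binds IL-6, was at 7.23, 8.02 and 7.82 in HLX replicates 1 to 3, against 7.24, 7.77 and 7.53 in control replicates 1 to 3. Replicate 1 was the lowest array of both groups, and the difference was 0.18 ± 0.22 (95% interval -0.34 to 0.71). It was 0.41 without HLX replicate 1 and 0.0152 without HLX replicate 2. Csf3r was at 6.36, 6.79 and 6.63 in HLX replicates 1 to 3, against 6.54, 6.55 and 6.60 in control replicates 1 to 3, a difference of 0.03 ± 0.13. Its control arrays lay within 0.06 of each other, inside the range of the HLX arrays, and limma array weights turned the difference to -0.02.

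Il6st, the gp130 chain, was at 8.38, 8.33 and 8.30 in HLX replicates 1 to 3, against 9.01, 8.16 and 8.30 in control replicates 1 to 3. Control replicate 1 stood apart from the other 5 arrays, which lay close together. The difference of -0.15 ± 0.21 (95% interval -0.65 to 0.35) rested on that array and was 0.11 without it. The ratio of Il6ra to Il6st likewise had a mean difference of 0.33 ± 0.48 SE, and -0.06 without control replicate 1.

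Of 11 measured genes of mast cells and basophils, 5 were highest on that same array (Cpa3, Gzmb, Mcpt8, Fcer1a and Hdc). All the others were highest on another array, and of these Prss34 was at its lowest on control replicate 1, at 5.57. Cpa3, a carboxypeptidase of mast cell granules, was at 4.96, 4.77 and 4.85 in HLX replicates 1 to 3, against 7.47, 4.99 and 5.10 in control replicates 1 to 3. Gzmb, a granule protease of cytotoxic cells and mast cells, was at 5.40, 5.60 and 5.47 in HLX replicates 1 to 3, against 7.66, 5.33 and 5.42 in control replicates 1 to 3. Both were raised in control replicate 1 alone. Mcpt8, a basophil protease, was at 5.16, 4.85 and 5.31 in HLX replicates 1 to 3 and at 6.60, 5.86 and 5.01 in control replicates 1 to 3. The platelet factor gene Pf4 was highest there as well, at 10.72, against 8.26 to 9.62 on the other arrays. The 11 mast cell and basophil markers averaged 5.09 to 5.27 on HLX arrays and 5.199 to 5.82 on control arrays, and 8 of them were below the median of every array. The 8 megakaryocyte markers, Pf4 among them, averaged 7.40 to 7.63 on HLX arrays and 7.24 to 7.81 on control arrays. Of these 8, only 3 were highest on control replicate 1, and 1 was lowest there. The part of these cells in the Il6st level was not tested.

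**Figure D4:**
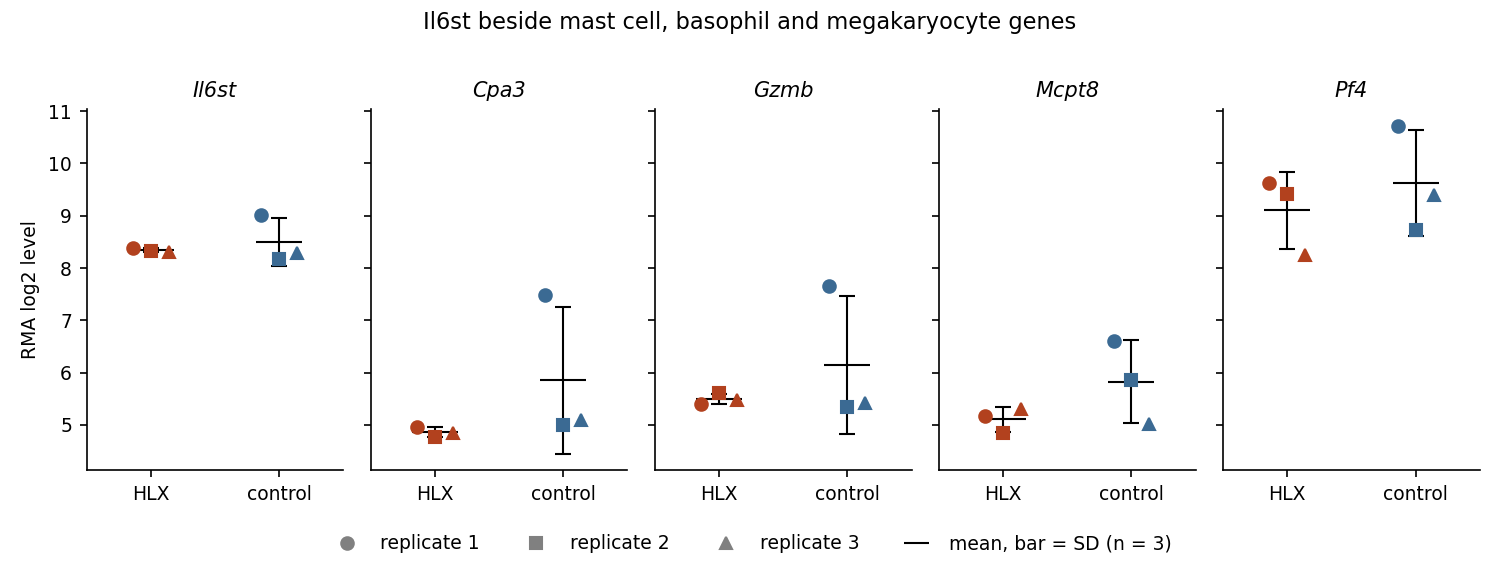
RMA log2 level of Il6st and 4 genes of mast cells, basophils and megakaryocytes on the 3 HLX arrays (left in each panel) and 3 control arrays (right); shapes give the replicate number, lines the mean and bars the SD. Control replicate 1 (circle) is the highest array in all 5 panels. In the full lists this held for 5 of 11 mast cell and basophil markers and 3 of 8 megakaryocyte markers.

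The genes around the receptors were described by gene lists. None of the 8 ligand genes had an unadjusted p under 0.05, with differences from -0.21 to 0.32. Flt3l, the ligand of Flt3, was at 7.70, 7.45 and 7.69 in HLX replicates 1 to 3 and at 7.38, 7.55 and 6.95 in control replicates 1 to 3, which overlapped, and the difference of Il3 was 0.20 ± 0.12. Of 9 JAK and STAT genes none reached that p, with a median of -0.07. Stat2, a factor of interferon signalling, had the smallest p, at 0.36 ± 0.19, followed by Stat5b, which acts downstream of the IL-3 receptor, at -0.36 ± 0.19.

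Among 24 negative regulators 1 gene (4.17%) had an unadjusted p under 0.05, a share near the 4.80% of all genes. It was Cblb, a ubiquitin ligase that removes activated receptors from the surface, at 7.63, 7.58 and 7.09 in HLX replicates 1 to 3, against 8.25, 8.602 and 8.24 in control replicates 1 to 3. Every HLX array was lower, by 1.91-fold on average (-0.93 ± 0.18 SE, unadjusted p 0.000979 and adjusted p 0.824 from limma). Next was Ptpn1, a tyrosine phosphatase, at -0.41 ± 0.18. The median of the list was 0.01.

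Of 26 kinases and adaptors that link receptors to RAS and PI3K, 1 was higher and 1 lower at that p (7.69%, against 4.80% of all genes). Syk, a tyrosine kinase of immune receptors, was at 8.61, 8.64 and 8.59 in HLX replicates 1 to 3, against 8.36, 8.18 and 8.20 in control replicates 1 to 3 (0.36 ± 0.09), with no overlap. Sos2, an exchange factor that loads RAS, had a difference of -0.37 ± 0.15 with overlapping groups. The list's median was 0.04.

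Of 20 genes known to be induced by STAT3 or STAT5, 5 were higher and 0 lower at an unadjusted p under 0.05, against 2.44% higher and 2.36% lower over all genes, and the list's median was 0.09. They were the cyclin gene Ccnd1 (1.01 ± 0.14 SE), the IL-4 receptor gene Il4ra (0.57 ± 0.11), the survival gene Bcl2l1 (0.46 ± 0.15), Cebpb, a factor of myeloid differentiation (0.36 ± 0.12), and Id1, an inhibitor of helix-loop-helix factors (0.62 ± 0.23). Other members of the list did not share this. Pim1, a kinase gene induced by IL-3, was at 7.95, 8.00 and 8.45 in HLX replicates 1 to 3, against 8.05, 8.13 and 8.40 in control replicates 1 to 3. Osm, which encodes the cytokine oncostatin M, was at 6.41, 5.91 and 6.91 in HLX replicates 1 to 3, against 6.11, 5.95 and 6.27 in control replicates 1 to 3. Both overlapped between vectors, as did Id1 of the 5 higher genes. No gene of the list passed the adjusted threshold (smallest adjusted p from limma 0.470, Ccnd1). Cish, Socs1, Socs2 and Socs3, also induced by STAT factors, were counted among the negative regulators and not here. Their differences were 0.12, 0.01, 0.32 and 0.02, and each overlapped between vectors.

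Among 35 other cytokine receptor genes 6 were higher and 1 lower at an unadjusted p under 0.05, against 2.44% higher and 2.36% lower over all genes, with a median of 0.02. Il4ra was also counted among the STAT targets, and Cxcr2 in the neutrophil, monocyte and macrophage list. The counts of these lists are therefore not separate. Il4ra was at 9.87, 9.91 and 10.003 in HLX replicates 1 to 3, against 9.44, 9.44 and 9.18 in control replicates 1 to 3, and was 1.49-fold higher without overlap. The interferon receptor chains Ifnar2 (0.30 ± 0.09 SE) and Ifngr2 (0.33 ± 0.13) and the IL-12 receptor chain Il12rb2 (0.57 ± 0.18) were higher on every HLX array as well, while Il21r (0.43 ± 0.18) overlapped. Il17ra, a receptor chain for IL-17, was lower on every HLX array (-0.54 ± 0.17). Cxcr2, a neutrophil chemokine receptor, was at 5.32, 7.17 and 4.94 in HLX replicates 1 to 3, against 4.42, 4.74 and 4.26 in control replicates 1 to 3. Its difference was 1.34 ± 0.53, and HLX replicate 2 was its highest array, while Csf1r was highest in HLX replicate 3.

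**Figure D5:**
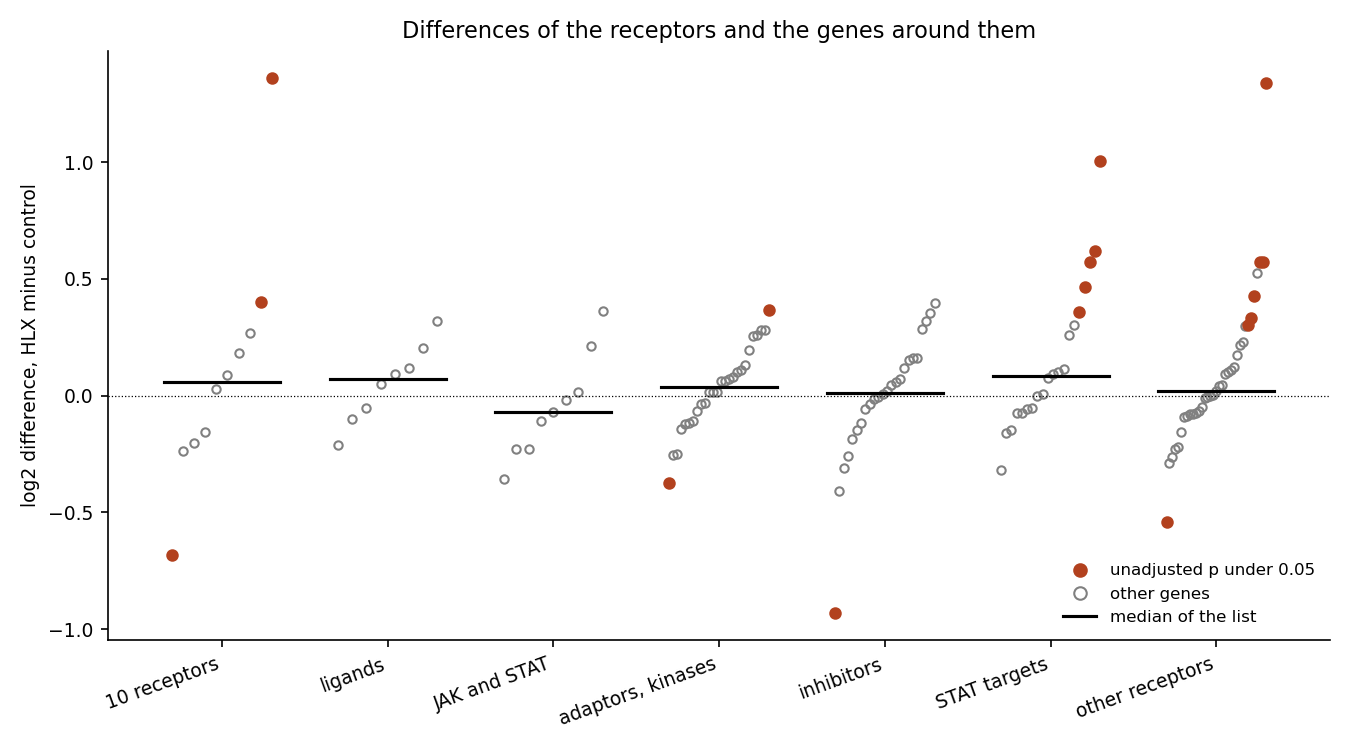
Log2 difference, HLX minus control vector (vertical axis), for every measured gene of the receptor list and of 6 lists around it (horizontal axis); filled points have an unadjusted p under 0.05 from limma and lines mark list medians. List medians lie between -0.07 and 0.09, and the filled points of the STAT target list are all above 0. Cish and the Socs genes are in the inhibitor list, not in the STAT target list. Il4ra is plotted both as a STAT target and among the other receptors.

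The genes whose levels over the 6 arrays most resembled each receptor were found by Pearson correlation among 17065 genes, leaving out predicted genes, clone names, small RNA genes and olfactory and vomeronasal receptor genes, as a description. For Flt3 the nearest was Vcl, the cytoskeletal protein vinculin (r = 0.995), for Csf1r the transporter gene Slc17a4 (0.992), for Csf2rb2 Klrc3 (0.994), and for Il6st Dnd1 (0.998). For Kit it was Krt77 (0.976), for Csf2ra Ebf1 (0.996), for Csf2rb Cnot7 (0.995), for Il3ra Stx19 (0.997), for Csf3r Wnk2 (0.998) and for Il6ra Gtpbp1 (0.987). With 6 arrays a near match is found for most genes, since the median of the highest r over all 19938 genes was 0.993. Of the nearest genes, Vcl was at 7.41, 7.09 and 6.77 in HLX replicates 1 to 3, against 7.62, 7.66 and 7.81 in control replicates 1 to 3, which is the same order of arrays as for Flt3.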

How the data were processed

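Gene expression was measured on 6 Affymetrix arrays. The deposited values are log2 levels per probeset, which the authors computed by RMA in Affymetrix Power Tools according to the submitters' processing notes, and their range shows the log2 scale. The genome build was not given in the sources used here. RMA normalizes between arrays and compresses weak signals, and 3 arrays per group limit the precision. Of 35556 probesets, 21789 had 1 gene symbol, 1621 several and 12146 were unlisted. The brightest one-symbol probeset was kept per gene, leaving 19938 genes. HLX was compared with control vector by limma 3.58.1 (lmFit, eBayes; 4 residual and 3.32 prior degrees of freedom) under R 4.3.3, with 2-sided p-values adjusted by Benjamini-Hochberg across the 19938 genes and called below 0.05. The code was tested on simulated data. Within-array ratios were compared by exact permutation. Promoters and names came from RefSeq, GRCm38.p6. Figures used matplotlib 3.10.9.

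The members and lists were chosen with earlier results of these data known. Named were all receptors, Hlx, list genes at an unadjusted p under 0.05 (at least 2 per list) and the gene most like each receptor. Marker genes, Pim1 and Osm were picked out after their values were seen. Whether replicate numbers pair the arrays is undetermined, and they were not used as pairs: the labels do not say, and deviations of same-numbered arrays correlated at 0.200, 0.00854 and 0.143.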

Additional observations from a re-analysis of the deposited data

How the results depend on the processing

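The alternatives were filters on dim genes, other normalizations, array weights, other variance priors, other choices of probeset, and leaving out each array. No receptor passed the adjusted threshold in any of the 17 alternatives, where the lowest adjusted p was 0.539 for Csf1r and Flt3. With a trended and robust prior 1 gene was called, Hlx (difference 2.95, adjusted p 0.0377). Leaving out 1 array in turn gave 0 calls each time, with Hlx between 2.71 and 3.21. The fit with the replicate number as a block called 0 genes and 0 receptors, with Hlx at 2.95, and whether the numbers pair the arrays is undetermined. Signs turned for Csf3r with array weights (-0.0161). Leaving out 1 array put Csf3r between -0.0705 and 0.15, Il6st between -0.32 and 0.11 and Kit between -0.0158 and 0.18, with 0.03, -0.15 and 0.09 over all arrays. Likewise the Csf2rb2 to Csf2rb ratio lay between -0.0086 (without control replicate 3) and 0.205, and the Il6ra to Il6st ratio between -0.0622 (without control replicate 1) and 0.626. With both arrays numbered 1 left out, which was decided after seeing the data, Il6st was at 0.087 and Kit at -0.0643. The causes were not tested. Filters, priors and centring cannot alter the within-array ratios. Array weights, the block and the probeset choices were not run on them. Median centring shifted the 958 genes at an unadjusted p under 0.05 from 487 higher and 471 lower to 612 higher and 376 lower of 988.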
